A study of Rattus norvegicus and Sus scrofa and Bos taurus with 188 samples.

Results

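The DNA repair and checkpoint genes of pig morulae were taken by symbol from the deposited expression table: the Fanconi anaemia genes, the RAD and XRCC genes, the mismatch, base excision and nucleotide excision genes, the BRCA1 and BRCA2 group, the PARP family and the ATM and ATR kinases with their partners. The cohesin gene RAD21 was left out by the same rule. This gave 74 genes of the 15877 gene names in the table. The embryos were porcine morulae marked PG, a mark that labels of sister samples spell out as parthenogenetic activation, in which an egg is started on development without sperm and carries maternal chromosomes alone. Total RNA of 4 libraries was copied by Smart-seq2, a full-length cDNA method for very small inputs. The authors merged the 4 libraries into 1 column of FPKM, a level scaled to transcript length and library total, so no value below has a replicate spread and no test was possible. The other samples of the 188 in the series were not used here. The labels give no breed, embryo number or time after activation. Of 10 morula markers, 10 reached 1 FPKM. Of 12 cumulus and granulosa cell markers, 0 did, with CYP19A1 highest at 0.835 FPKM and FSHR, FOXL2 and TNFAIP6 listed at 0. Of 6 egg markers, 5 did: BMP15 at 48.1 FPKM, ZP4 at 16.5 FPKM, GDF9 at 10.2 FPKM, ZP2 at 5.00 FPKM and ZP3 at 1.44 FPKM. FIGLA was listed at 0. RNA carried over from the egg and RNA made in the embryo cannot be told apart in any level below.

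Cells keep separate repair systems for separate lesions. Base excision removes single damaged bases, nucleotide excision cuts out bulky lesions, mismatch repair corrects copying errors, the Fanconi anaemia pathway unhooks crosslinked strands, and broken ends are either rejoined directly or copied from the sister by homologous recombination. ATM and ATR sense broken or unreplicated DNA and hold the cell cycle through the checkpoint kinases. Cleaving embryos divide with little growth between divisions and draw at first on RNA and protein stored in the egg. The roles named below come from human, mouse and yeast work.

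A gene's level is its highest transcript row, and 1 FPKM or more counts as expressed. By that measure 56 of the 74 genes (75.7%) were expressed, against 48.8% of all gene names. The remaining 18 split into 15 with a value under 1 FPKM and 3 whose every row was 0: RAD9B, RAD51AP2 and XRCC3. In merged embryos, fewer cells with a transcript and less of it per cell cannot be told apart. The median was 2.998 FPKM over the repair genes and 0.916 FPKM over all genes. After genes under 0.1 FPKM were left out, the medians were 3.14 FPKM for the repair genes and 2.83 FPKM for all genes. The highest repair gene stood at 33.6 FPKM, and the highest gene of the table at 3719 FPKM. At 5 FPKM 30 repair genes (40.5%) remained, against 28.4% of all genes. At 10 FPKM 19 (25.7%) remained, against 20.2%. Among expressed genes alone the order turned: the median was 5.18 FPKM for expressed repair genes and 6.89 FPKM for all expressed genes, and 33.9% of the first and 41.3% of the second reached 10 FPKM. Fewer than 10% of all genes stood above 3 of the repair genes, FANCL and UNG among them, and 24 repair genes stood above 6.55 FPKM, the level that 25% of all genes exceed. The members thus occupied a middle band, with 3 of 74 at 0, against 2745 of all 15877 genes, and none above 33.6 FPKM. Of all 15877 genes, 82.7% stood above 0. The 3 include XRCC3, whose only row lies in a run of rows at the end of the table that are all at 0. Its level is therefore not known, and the 2745 likewise include 215 gene names found only in that run. Beside the members, a list of 117 other repair and checkpoint genes was followed, of which 106 were measured and 86 (81.1%) were expressed, at a median of 6.25 FPKM. Of these 106, 38.7% reached 10 FPKM and the highest stood at 716 FPKM. The upper limit of 33.6 FPKM thus holds only for the genes that the symbol rule takes. All rows of the 74 members together held 0.209% of the summed FPKM of the table.

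**Figure D1:**
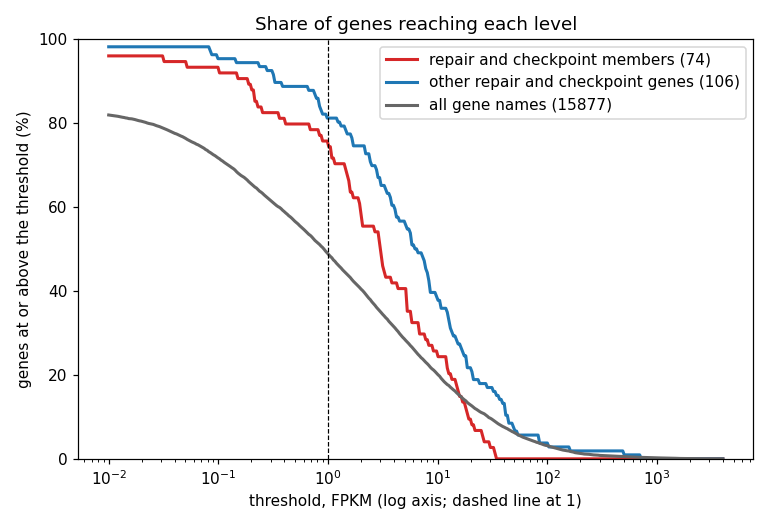
Share of genes (vertical axis, %) at or above each FPKM threshold (horizontal axis, log scale) for the 74 repair and checkpoint members, the 106 other repair and checkpoint genes and all 15877 gene names. At 1 FPKM the lines stand at 75.7%, 81.1% and 48.8%, and the members end at 33.6 FPKM.

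The highest members came from many pathways. FANCL, the ubiquitin ligase subunit of the Fanconi core, stood at 33.6 FPKM (transcript ENSSSCT00000009191.3), with 8.83% of all genes above it. UNG, which removes uracil from DNA, stood at 29.7 FPKM (ENSSSCT00000010890.3). CHEK2, the kinase downstream of ATM, stood at 26.0 FPKM (ENSSSCT00000037647.1), and FANCB, a Fanconi core subunit, at 25.7 FPKM (ENSSSCT00000013269.3). The 5 highest members made up 29.6% of the summed levels of the 74. Next came XPA, a damage verification factor of nucleotide excision, at 21.4 FPKM, and PARP2, a polymerase of ADP-ribose chains at strand breaks, at 20.3 FPKM. ERCC6L stood at 19.0 FPKM. It carries a repair name but encodes a helicase of mitotic chromatin bridges. RAD51AP1, a cofactor of strand exchange, stood at 18.3 FPKM and ERCC8, which marks stalled RNA polymerase for repair, at 17.6 FPKM.

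The 1 FPKM line fell within a close series of values. The 5 members just above it were XPC (1.41 FPKM), FANCF (1.12 FPKM), FANCE (1.08 FPKM), ERCC3 (1.06 FPKM) and PARP11 (1.01 FPKM). The 5 members just below it were ERCC4 (0.874 FPKM), ERCC2 (0.816 FPKM), FANCC (0.677 FPKM), PARP9 (0.399 FPKM) and PARP14 (0.354 FPKM). With no replicates, genes this close to the line cannot be placed firmly on either side. At 0.5 FPKM ERCC4, ERCC2 and FANCC counted as expressed too, for 59 members in all.

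**Figure D2:**
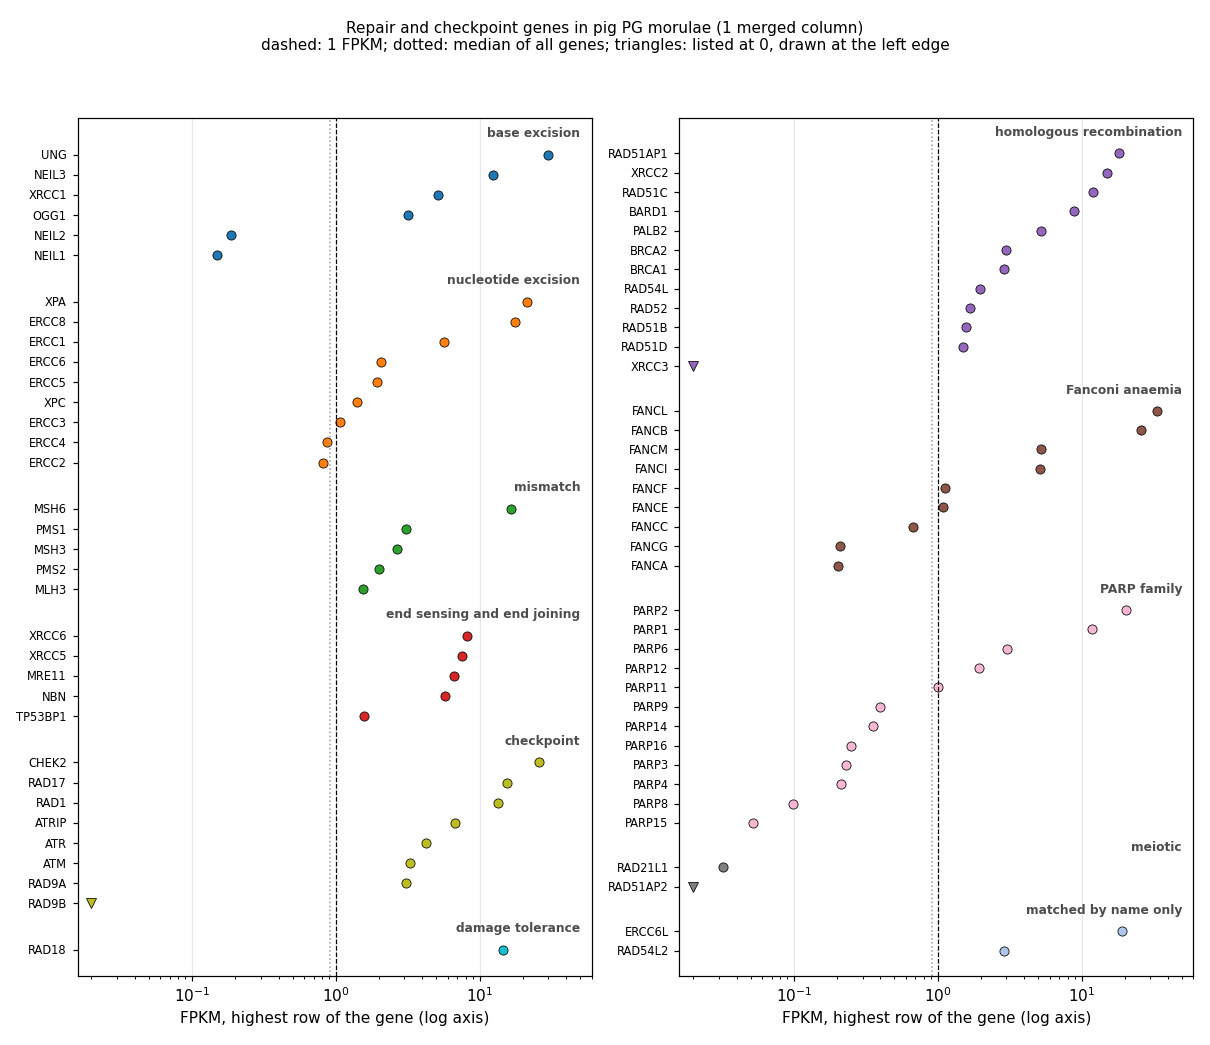
Levels of 71 of the 74 members (horizontal axis, FPKM of the highest row, log scale), grouped by repair pathway, 1 point per gene from the merged column. The mismatch and end sensing genes shown all lie to the right of the dashed line at 1 FPKM, while 7 of 12 PARP genes lie to its left.

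Among base excision genes, 4 of 6 were expressed (66.7%, against 48.8% of all gene names), with a median of 4.17 FPKM. The glycosylases, which each cut out a class of damaged base, were far apart. UNG stood at 29.7 FPKM and OGG1, which removes oxidised guanine, at 3.19 FPKM, a ratio of 9.30. Of the NEIL glycosylases for oxidised bases, NEIL3, which also acts on single-stranded and crosslinked DNA, stood at 12.3 FPKM. NEIL1 stood at 0.148 FPKM and NEIL2 at 0.187 FPKM, which put NEIL3 83.3 times above NEIL1. With so low a value for NEIL1 and no replicates, the size of that ratio is uncertain. With rows summed the order of NEIL1 and NEIL2 turned (0.211 and 0.187 FPKM). XRCC1, the scaffold for ligation of single-strand breaks, stood at 5.15 FPKM. Of 13 other base excision genes measured, 12 were expressed (92.3%, against 48.8% of all gene names). They were led by the thymine glycosylase gene TDG at 23.6 FPKM and by APTX, which clears abortive ligation ends, at 16.6 FPKM.

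Nucleotide excision had 8 of 10 members expressed (80%, against 48.8% of all gene names) and a median of 1.995 FPKM. Its genes covered the range from the top of the list to just below 1 FPKM. The highest were XPA at 21.4 FPKM and ERCC8 at 17.6 FPKM. The damage sensor gene XPC stood at 1.41 FPKM. ERCC6, which works with ERCC8 at stalled transcription, stood at 2.06 FPKM. The incision nucleases were low in part: ERCC1 at 5.64 FPKM, its obligate partner ERCC4 at 0.874 FPKM (a ratio of 6.45) and ERCC5 at 1.93 FPKM. ERCC3 and ERCC2, the translocase and helicase of the transcription factor TFIIH, stood at 1.06 and 0.816 FPKM, or 2.14 and 1.86 FPKM with rows summed.

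The other measured subunits of TFIIH were all higher than these 2. GTF2H5 stood at 158 FPKM, CDK7 at 82.6 FPKM, CCNH at 41.5 FPKM, GTF2H3 at 31.5 FPKM, MNAT1 at 21.1 FPKM, GTF2H4 at 12.4 FPKM and GTF2H1 at 4.13 FPKM. GTF2H5 and ERCC2, which sit in 1 complex, differed 194-fold by the highest row. With rows summed the gap was smaller, at 158 and 1.86 FPKM. GTF2H2 was not analysed here. Across all 11 other nucleotide excision genes measured, 9 were expressed (81.8%, against 48.8% of all gene names). DDB2, the sensor of ultraviolet lesions, stood at 0.754 FPKM and UVSSA, which stabilises ERCC6, was lowest at 0.0820 FPKM. CETN2, which binds XPC and also sits in centrioles, stood at 53.2 FPKM.

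All 7 mismatch repair members were expressed (100%, against 48.8% of all gene names), with a median of 3.08 FPKM. MSH6, which recognises single mismatches, stood at 16.4 FPKM. MSH3, its counterpart for larger loops, stood at 2.68 FPKM, so MSH6 exceeded it 6.13-fold. Of the MutL genes, which act after recognition, PMS1 stood at 3.08 FPKM, PMS2 at 2.00 FPKM and MLH3 at 1.54 FPKM. With rows summed PMS1 came to 7.98 FPKM, while PMS2, with 1 row, kept 2.00 FPKM and MLH3 came to 1.93 FPKM. The 7 other mismatch genes listed, which also serve the replication fork, were all expressed (100%, against 48.8% of all gene names). The clamp gene PCNA at 716 FPKM and the clamp loader gene RFC3 at 50.6 FPKM led them, and RFC1 was lowest at 8.46 FPKM.

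The 5 members that sense and rejoin broken ends were all expressed (100%, against 48.8% of all gene names). Their median was 6.68 FPKM. XRCC6 and XRCC5, which form the Ku ring on broken ends, stood at 8.17 and 7.55 FPKM. With rows summed the order turned, to 8.49 FPKM for XRCC6 and 15.96 FPKM for XRCC5. MRE11 (6.68 FPKM) and NBN (5.72 FPKM), which belong to the complex that tethers and trims ends, were also close, and their order also turned with rows summed (11.04 and 11.6 FPKM). RAD50, the remaining subunit, was not analysed here. TP53BP1, which shields ends from trimming, stood at 1.58 FPKM, or 3.70 FPKM with its 5 rows summed.

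Of 12 other end joining genes measured, 7 were expressed (58.3%, against 48.8% of all gene names). PRKDC, the large kinase that Ku recruits, stood at 0.278 FPKM, and XRCC6 exceeded it 29.4-fold, a ratio of uncertain size at so low a value. PAXX, a scaffold of the ligation step, counted here as not expressed, but it is listed at 0 only in the run of rows at the end of the table that are all at 0, so its level is not known. The ligase gene LIG4 stood at 1.66 FPKM, NHEJ1, which aligns the ends, at 3.03 FPKM, and the nuclease gene DCLRE1C at 5.80 FPKM. POLQ, the polymerase of the microhomology route, stood at 4.10 FPKM. The highest were MAD2L2 (18.4 FPKM) and RIF1 (8.28 FPKM), which act with TP53BP1 and also elsewhere in the cell cycle.

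Homologous recombination had 11 of 12 members expressed (91.7%, against 48.8% of all gene names), at a median of 2.93 FPKM. Without XRCC3, whose level is not known, the count was 11 of 11. RAD51AP1 (18.3 FPKM), XRCC2 (15.1 FPKM), RAD51C (12.1 FPKM) and BARD1 (8.91 FPKM) were the highest. BRCA1, the partner of BARD1 in a ubiquitin ligase, stood at 2.87 FPKM, and BARD1 exceeded it 3.10-fold. With rows summed BRCA1 stood at 5.55 FPKM, and the single row of BARD1 kept it at 8.91 FPKM. BRCA2, which acts on resected single strands, stood at 2.99 FPKM, and PALB2, which joins BRCA1 to BRCA2, at 5.26 FPKM. RAD54L, a motor that drives strand invasion, stood at 1.95 FPKM, and the annealing gene RAD52 at 1.68 FPKM.

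RAD51B, RAD51C, RAD51D and XRCC2, which form 1 complex of recombination, fell into a high and a low pair. In this complex XRCC2 stood at 15.1 FPKM and RAD51C at 12.1 FPKM, while RAD51B stood at 1.57 FPKM and RAD51D at 1.49 FPKM. XRCC3, which pairs with RAD51C in the other complex, was listed at 0. Its only row lies in the run of 474 rows at the end of the table that are all at 0 and include the mitochondrially encoded genes, so its level is not known from this table. Of 19 other recombination genes measured, 17 were expressed (89.5%, against 48.8% of all gene names). The single-strand binding genes RPA2 (44.0 FPKM) and RPA3 (39.1 FPKM) were highest. The nuclease scaffold gene SLX4 was lowest at 0.0961 FPKM.

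Fanconi anaemia members numbered 9, of which 6 were expressed (66.7%, against 48.8% of all gene names). The median over the 9 members, 1.12 FPKM, lay near the 0.916 FPKM of all genes. The core complex has known modules, whose genes are given in turn. The catalytic module holds FANCB, FANCL and FAAP100. FANCL stood at 33.6 FPKM and FANCB at 25.7 FPKM, with FAAP100, outside the selection rule, at 1.66 FPKM. The module of FANCC, FANCE and FANCF, which docks the substrate, lay around the threshold at 0.677, 1.08 and 1.12 FPKM. FANCC crossed it with rows summed (1.06 FPKM). FANCA and FANCG, of the module that helps place the core on chromatin, stood at 0.202 and 0.210 FPKM, each from a single row. FANCL exceeded FANCA 167-fold and FANCG 160-fold. Both ratios rest on values far below 1 FPKM with no replicate spread, so their size is uncertain. The modules were compared after their values had been seen.

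Around the core, FANCM, the motor that anchors it to DNA, stood at 5.20 FPKM and its partner FAAP24 at 40.6 FPKM. FANCI stood at 5.16 FPKM. Its partner in the clamp that the core marks with ubiquitin, FANCD2, which the symbol rule does not take, stood at 3.79 FPKM, a ratio of 1.36. UBE2T, which supplies the ubiquitin, stood at 15.9 FPKM. USP1 and WDR48, which remove it, stood at 19.9 and 41.4 FPKM. The crosslink nuclease gene FAN1 was lowest of the other Fanconi genes at 0.975 FPKM.

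**Figure D3:**
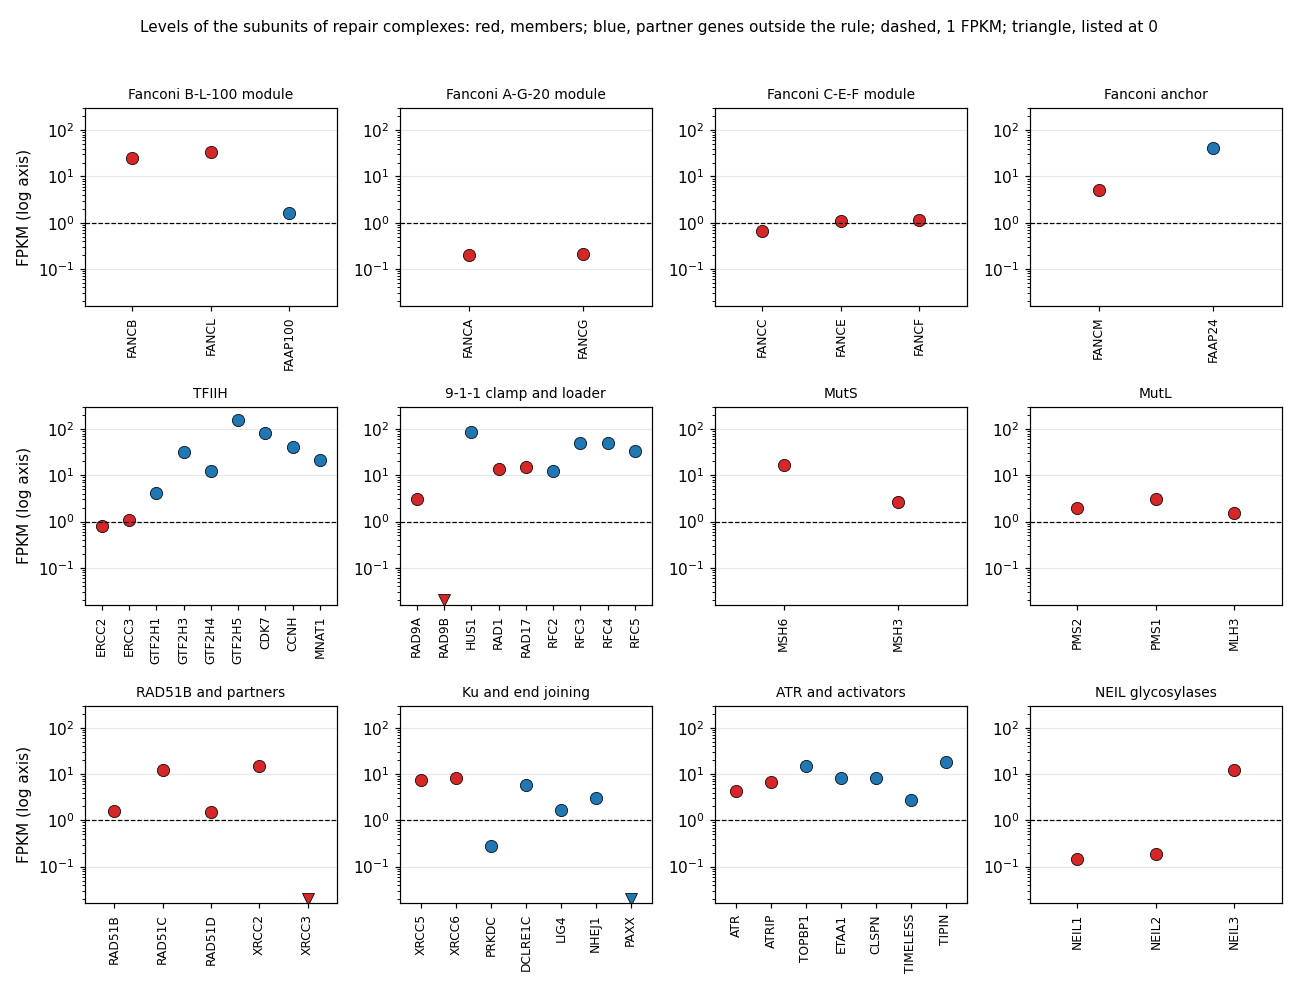
Levels (vertical axis, FPKM of the highest row, log scale) of subunits of 12 repair complexes or small families, 1 point per gene, members in red and partner genes outside the selection rule in blue. FANCL and FANCB stand near 30 FPKM and FANCA and FANCG near 0.2 FPKM, and the TFIIH members ERCC2 and ERCC3 lie at the 1 FPKM line below all their partners.

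Of the groups with 5 or more members, the PARP family had the lowest expressed share, 5 of 12 (41.7%, against 48.8% of all gene names), with a median of 0.376 FPKM. PARP2 (20.3 FPKM) and PARP1 (11.9 FPKM), the chain-forming enzymes activated by DNA breaks, stood above all others, with PARP2 1.72 times PARP1. Of PARP3 to PARP16, 3 of 10 measured genes were expressed: PARP6 at 3.01 FPKM, PARP12 at 1.94 FPKM and PARP11 at 1.01 FPKM, all of which transfer single ADP-ribose units. PARP3, which also responds to DNA breaks, stood at 0.229 FPKM. PARP9 (0.399 FPKM), PARP14 (0.354 FPKM), PARP16 (0.250 FPKM), PARP4 (0.214 FPKM), PARP8 (0.0994 FPKM) and PARP15 (0.0516 FPKM) lay below 1 FPKM as well. Many of these have known roles outside DNA repair, as PARP16 does in the endoplasmic reticulum. Without PARP3 to PARP16, 53 of 64 members (82.8%) were expressed.

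Of 8 checkpoint members, 7 were expressed (87.5%, against 48.8% of all gene names), and the median was 5.48 FPKM. CHEK2 stood at 26.0 FPKM, above both sensor kinases, ATR at 4.24 FPKM and ATM at 3.26 FPKM. CHEK1, the kinase downstream of ATR, was not analysed here. ATRIP, which carries ATR to single-stranded DNA, stood at 6.71 FPKM, 1.58 times ATR. The clamp of RAD9, RAD1 and HUS1 is loaded at stalled forks by RAD17 with the small RFC subunits. RAD17 stood at 15.4 FPKM and RAD1 at 13.5 FPKM, while RAD9A stood at 3.07 FPKM. The paralogue RAD9B, known mainly from testis, was listed at 0 outside the trailing rows. HUS1, outside the selection rule, stood at 84.4 FPKM, 27.4 times RAD9A.

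Of 18 other checkpoint genes measured, 15 were expressed (83.3%, against 48.8% of all gene names). HUS1 was the highest and the mitotic phosphatase gene CDC25C, at 28.3 FPKM, the next. The activators of ATR were present, TOPBP1 at 14.6 FPKM and ETAA1 at 8.22 FPKM, as was CLSPN, which links ATR to its target kinase, at 8.35 FPKM. MDC1, the scaffold at marked histones, stood at 0.311 FPKM and the ubiquitin ligase gene RNF8, which binds that scaffold, at 7.12 FPKM. CDC25A counted here as not expressed, but it is listed at 0 only in the trailing rows, so its level is not known.

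RAD18, the ubiquitin ligase that marks PCNA at stalled forks, stood at 14.4 FPKM, or 29.8 FPKM with its 3 rows summed. The translesion polymerases that act after it were lower. Of 7 other damage tolerance genes 6 were expressed (85.7%, against 48.8% of all gene names). POLI at 6.45 FPKM and REV3L at 4.46 FPKM led them, with HLTF lowest at 0.771 FPKM. The 2 members tied to meiosis were not expressed: RAD21L1, a cohesin subunit of meiotic chromosomes, stood at 0.0319 FPKM, and RAD51AP2, also linked to meiosis, was listed at 0. RAD54L2, which shares its name with RAD54L but is known as a remodeller at hormone receptors, stood at 2.89 FPKM.

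Some partner or paralogue genes were close in level and others were far apart. Of the 27 pairs of partners or paralogues on the list, 18 had both genes measured and 17 gave a ratio, since RAD9B was at 0. In 9 of the 17 the levels lay within 2-fold. Among these were XRCC5 with XRCC6, NBN with MRE11, ATR with ATRIP and with ATM, NEIL1 with NEIL2, PARP1 with PARP2, and FANCI with FANCD2. The widest ratios were NEIL3 over NEIL1 (83.3), UNG over OGG1 (9.30), ERCC1 over ERCC4 (6.45) and MSH6 over MSH3 (6.13). The size of the NEIL3 ratio is uncertain, since NEIL1 stood at 0.148 FPKM. A ratio of RNA levels says nothing of the protein ratio in a complex.

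The value of a gene depends on how reads were divided among its transcripts. The 74 members had 192 rows, and 50 members (67.6%) had more than 1, against 55.5% of all genes. In the 49 of these above 0, the highest row held a median of 72.1% of the gene's summed FPKM. In 18 members the sum exceeded the highest row over 1.5-fold, and in 9 of these over 2-fold. RAD17 had rows of 15.4, 14.3 and 4.05 FPKM and summed to 33.8 FPKM, which would make it the fifth highest member by sum. XRCC5 had rows of 7.55 and 7.52 FPKM. PMS1 had 7 rows, of which 4 were at 1 FPKM or more. Summing took 2 more members across 1 FPKM, ERCC2 (1.86 FPKM) and FANCC (1.06 FPKM), for 58 of 74 in all. Of the 50 members with several rows 39 were expressed, and of the 24 with 1 row 17 were. Over all genes the shares were 55.9% with several rows and 39.95% with 1 row.

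**Figure D4:**
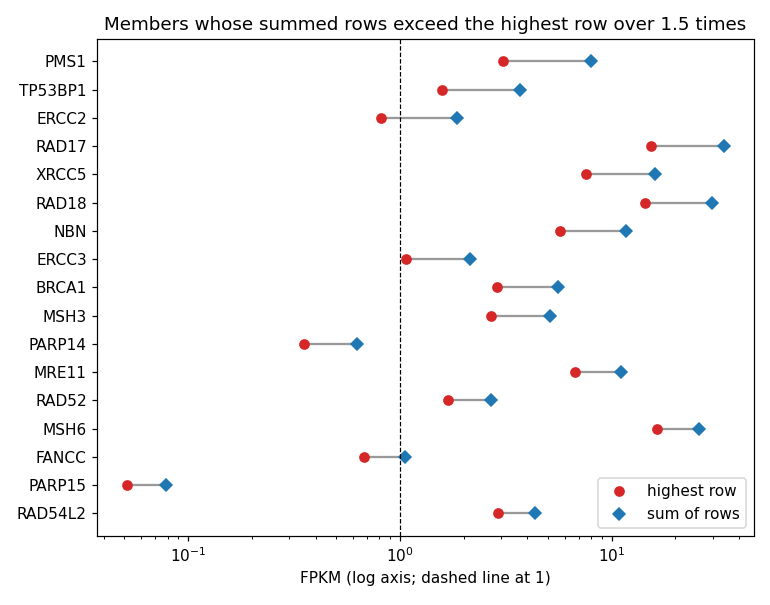
Level by the highest row (circles) and by the sum of all rows (diamonds) for 17 of the 18 members in which the sum exceeds the highest row over 1.5-fold (horizontal axis, FPKM, log scale). PMS1 has the widest gap, and ERCC2 and FANCC cross the dashed line at 1 FPKM.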

How the data were processed

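The deposited table gives FPKM values made by the authors (per the file headers), with 1 row for each of 37571 Ensembl transcripts and 1 column in which 4 Smart-seq2 libraries are merged. The submitters' processing notes name TopHat2 2.1.1, Cufflinks 2.2.1 and other tools for all data types together, and the pig build susScr11. Which of them made this table is not stated. Depth is unknown, and 4534 rows lie above 0 but under 1e-06 FPKM, too small for whole reads, so no read counts were recovered. Members were found by symbol with Python 3.11.15 and pandas 2.3.3. The symbol match, the highest row and the count at 1 FPKM were tested on simulated data, and the other steps were not. Each member was put in 1 of 11 groups by textbook role. Named were all members at 1 FPKM or more, those nearest below it in each pathway, fixed pairs, and the 2 highest and 1 lowest of each role among other repair genes. Other partner genes were named, and complexes grouped, after their values were seen. Members, lists and pairs were chosen with earlier results of these data known. No transcript lengths were used. A few genes that the rule takes are counted but not reported here. The reference sequences at hand were rat, so no sequence is printed.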

Additional observations from a re-analysis of the deposited data

How the results depend on the processing

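No paired analysis was possible because the 4 libraries are merged in 1 column, which also leaves no library to leave out. Alternatives were thresholds of 0.5, 5 and 10 FPKM, summed rows, leaving out genes found only in the trailing rows, scaling to TPM (all rows summing to 1000000, which puts 1 TPM at 0.305 FPKM), a filter at 0.1 FPKM, which left no meiotic member, and means of log2(FPKM + 1) or log2(FPKM + 0.1) in place of the median. Counts of expressed members stayed within 1.5-fold under every alternative but the 2 higher thresholds. At 5 FPKM 30 members remained. They were 3 for base excision, 4 for nucleotide excision, 2 for mismatch repair, 4 for end sensing and 5 for recombination. The rest were 4 for Fanconi anaemia, 2 for PARP, 4 for checkpoint, 1 for damage tolerance and 1 for genes matched by name only. At 10 FPKM 19 members remained. They were 2 for base excision, 3 for nucleotide excision, 2 for mismatch repair, 0 for end sensing and 3 for recombination. The rest were 2 for Fanconi anaemia, 2 for PARP, 3 for checkpoint, 1 for damage tolerance and 1 for name matches. Of the other repair genes 41 remained at 10 FPKM. The median member was 9.83 after scaling to TPM, a change of unit, against 3.00 over all genes. The distance between members and all genes was smaller with the filter (medians of 3.14 and 2.83 FPKM) and by the mean of log2(FPKM + 1) turned back to FPKM (3.51 and 2.41). The filter kept 68 of 74 members and 11370 of 15877 genes, of which 82.4% and 68.1% were expressed. With rows summed the ratio turned for XRCC5 over XRCC6 (1.88), NBN over MRE11 (1.05) and NEIL1 over NEIL2 (1.13).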

Other observations

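Of 3 genes of direct reversal, which undo alkyl damage without cutting DNA, 2 were expressed (66.7%, against 48.8% of all gene names). ALKBH2 stood at 101 FPKM and MGMT at 43.7 FPKM, while ALKBH3 stood at 0.829 FPKM. Of 10 genes of meiotic recombination and chromosome axes 6 were expressed (60%, against 48.8% of all gene names). SYCP3, an axis protein of meiotic chromosomes, stood at 495 FPKM, far above its partners SYCP2 (2.99 FPKM) and SYCP1 (1.63 FPKM). SPO11, which makes the meiotic breaks, stood at 12.9 FPKM and the axis gene HORMAD1 at 12.0 FPKM, while the meiotic recombinase gene DMC1 was lowest at 0.0845 FPKM. No egg was analysed here, so RNA carried over from the egg and RNA made in the embryo cannot be told apart.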
